A study of Drosophila melanogaster with 6 samples.

Results

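Glycogen and trehalose are the carbohydrate stores of the fly: glycogen is a branched glucose polymer held inside muscle and fat body cells, and trehalose is a disaccharide that circulates in the hemolymph. Glycogen is built from UDP-glucose by glycogen synthase and the branching enzyme and is broken down by glycogen phosphorylase, which phosphorylase kinase switches on. Trehalose is made mainly in the fat body, leaves and enters cells through facilitated transporters, and is split into glucose by trehalase in the tissues that use it. The genes described here are the 8 members of these pathways named GlyP, GlyS, AGBE, UGP, PhKgamma, Tps1, Treh and Tret1-1. They were chosen by gene symbol, all 8 were found among the 17807 genes of the deposited table, and all 8 passed the filter on low values.

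Expression was measured by RNA-seq in lysates enriched for muscle, made from Drosophila melanogaster larvae late in the third instar, grown for about 90 h, with 7 to 10 larvae pooled per library. In the tmodRNAi genotype (UAS-dcr2;;Dmef2-Gal4>UAS-tmodRNAi, 3 libraries) a hairpin against tmod, which encodes the actin pointed-end cap tropomodulin, was expressed with the muscle-active Mef2 driver. In the mCherryRNAi genotype (UAS-dcr2;;Dmef2-Gal4>UAS-mCherryRNAi, 3 libraries) the same driver and the same Dicer-2 transgene were combined with a hairpin against mCherry, a protein that flies lack. The driver restricts knockdown to cells that use the Mef2 promoter, so other cells in the lysate carry no active hairpin, and the labels do not say how muscle was enriched. One label field names adult body wall, against the larval stage given elsewhere. The labels call the libraries of a genotype biological replicates, and the p-values measure the spread between these pools.

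Values are normalized counts, that is, gene read counts divided by 1 size factor per library. Reads assigned to genes ranged from 92705939 to 101067428 in tmodRNAi libraries and from 83824273 to 110151028 in mCherryRNAi libraries. tmod had 13993, 13734 and 12980 normalized counts in tmodRNAi replicates 1 to 3, against 70528, 92366 and 75101 in mCherryRNAi replicates 1 to 3 (log2 fold change -2.54, SE 0.12, limma adjusted p = 0.0045). All 19 listed muscle markers were detected in every library. Their summed level was 13337598 to 14989130 normalized counts in tmodRNAi libraries, against 8692605 in mCherryRNAi replicate 1, 2846274 in replicate 2 and 3565923 in replicate 3. mCherryRNAi replicate 1 thus stood apart from the other 2 controls, and the members' fold changes are given with and without it. It was singled out on these values, as the control nearest to the tmodRNAi libraries. Leaving it out therefore tends to enlarge the differences and is no independent check. In bulk lysates, fewer cells of a type and less RNA per cell cannot be told apart.

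2 members passed the test between genotypes: Tps1 rose and Treh fell in tmodRNAi libraries. Of the 8 members, 1 passed as higher, where 10.9% of the 10969 tested genes did so, and 1 as lower, where 12.9% did (limma on log2(normalized count + 1), Benjamini-Hochberg adjusted p under 0.05 over all tested genes, 23.8% in either direction). The 5 genes of glycogen metabolism had log2 fold changes between 0.77 and 1.67, and none of them passed. The median log2 fold change of the 8 members was 0.92, against 0.02 for all tested genes. The groups did not overlap for 3 members (AGBE, Tps1 and Treh), a share below the 51.4% of tested genes without overlap.

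**Figure D1:**
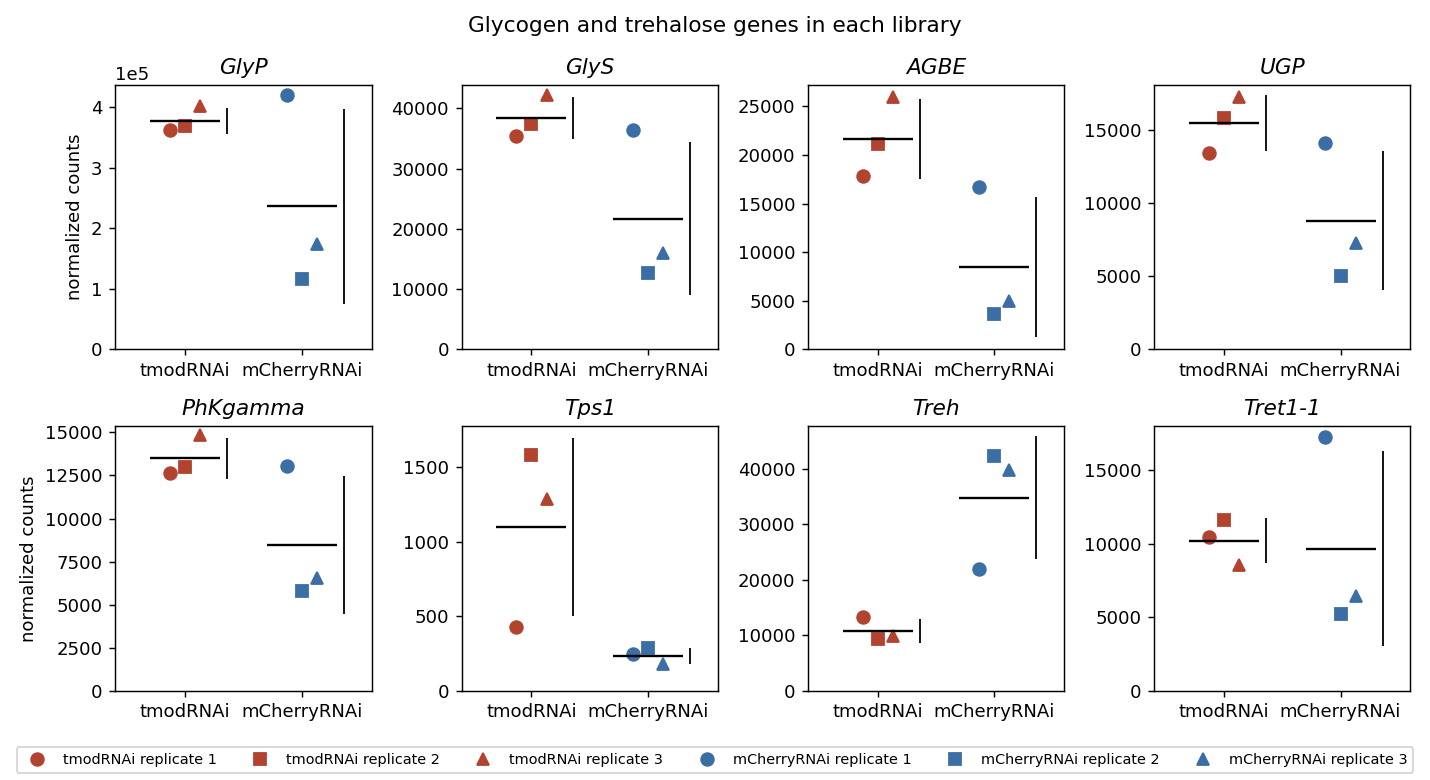
Normalized counts (linear axes that start at 0) of the 8 genes in each library, tmodRNAi in red on the left and mCherryRNAi in blue on the right; marker shapes give the replicate, horizontal lines the group mean and the vertical line beside it ± 1 SD (n = 3). For the 5 glycogen genes mCherryRNAi replicate 1 (circle) lies near the tmodRNAi libraries and replicates 2 and 3 lie lower, whereas Treh is highest in mCherryRNAi replicates 2 and 3.

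The breakdown of glycogen was examined first. GlyP (FBgn0004507; chromosome 2L, 2130813 to 2137296, plus strand, dm6 coordinates of BDGP6.54, as are all positions here) encodes glycogen phosphorylase, which releases glucose 1-phosphate from the polymer. It had 362000.4, 368474 and 402099 normalized counts in tmodRNAi replicates 1 to 3, against 419466, 116715 and 173554 in mCherryRNAi replicates 1 to 3. The highest of the 6 values was that of mCherryRNAi replicate 1, and the other two controls lay below every tmodRNAi library. The tmodRNAi mean was 377524 ± 21527 and the mCherryRNAi mean 236578 ± 160915 (SD, n = 3 each), with a log2 fold change of 0.89 (SE 0.47, limma adjusted p = 0.19). The 95% interval of this change, -0.25 to 2.03, spans 0. Without mCherryRNAi replicate 1 the log2 fold change was 1.41 (SE 0.19, limma adjusted p = 0.0021). The fits without any 1 of the other libraries gave 0.48 to 0.92 (limma adjusted p from 0.29 to 0.43).

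PhKgamma (FBgn0011754; X, 11695137 to 11704394, plus strand) encodes the catalytic subunit of phosphorylase kinase, the enzyme that phosphorylates and thereby activates glycogen phosphorylase. Its normalized counts were 12671, 12981 and 14843 in tmodRNAi replicates 1 to 3, against 13069.9, 5778 and 6532 in mCherryRNAi replicates 1 to 3. Again mCherryRNAi replicate 1 lay within the tmodRNAi range and the other two controls were lower. Its log2 fold change was 0.77 (SE 0.31, limma adjusted p = 0.11), and 1.13 without mCherryRNAi replicate 1 (adjusted p = 0.00048). The exons of PhKgamma share 85 of 3300 bases with CG2444 on the opposite strand, and the strand setting of the counting is not given in the sources used here. CG2444 had 309 to 530.3 normalized counts in tmodRNAi libraries, against 15494, 272029 and 228667 in mCherryRNAi replicates 1 to 3, the opposite direction to PhKgamma. Its part in the PhKgamma counts was not tested.

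In the 3 genes of glycogen synthesis mCherryRNAi replicates 2 and 3 were again the lowest libraries. GlyS (FBgn0266064; 3R, 15141843 to 15147531, minus strand) encodes glycogen synthase, which adds glucose from UDP-glucose to the growing chain. Its tmodRNAi values were 35419, 37453 and 42206 normalized counts, against 36321, 12750.3 and 16064 in mCherryRNAi replicates 1 to 3. The groups overlapped through mCherryRNAi replicate 1 alone. The tmodRNAi mean was 38360 ± 3483 and the mCherryRNAi mean 21712 ± 12760 (SD, n = 3 each), with a log2 fold change of 0.97 (SE 0.38, limma adjusted p = 0.10).

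UGP (FBgn0035978; 3L, 9350867 to 9358935, minus strand) encodes UTP-glucose-1-phosphate uridylyltransferase, which makes the UDP-glucose that glycogen synthase and other enzymes use. It had 13461, 15797 and 17261 normalized counts in tmodRNAi replicates 1 to 3, against 14129.6, 5006 and 7275 in mCherryRNAi replicates 1 to 3. Here too mCherryRNAi replicate 1 lay within the tmodRNAi range. UGP had a log2 fold change of 0.94 (SE 0.37, limma adjusted p = 0.10). UGP exons share 602 of 3013 bases with PGRP-LF on the opposite strand, a gene with 748 to 1294 normalized counts in tmodRNAi and 405 to 745 in mCherryRNAi libraries.

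AGBE (FBgn0053138; 2R, 13171401 to 13174796, plus strand) encodes the branching enzyme, which introduces the side chains of glycogen. Its normalized counts were 17831, 21079 and 25964 in tmodRNAi replicates 1 to 3, against 16709.7, 3628 and 4967 in mCherryRNAi replicates 1 to 3. Every tmodRNAi library lay above every control, although mCherryRNAi replicate 1 came close to tmodRNAi replicate 1. The log2 fold change of 1.67 (SE 0.56) was the largest among the 5 glycogen genes and did not pass in limma (adjusted p = 0.073); it passed in DESeq2 on recovered reads, where the log2 fold change was 1.36 (adjusted p = 0.043). The exact two-sided permutation p was 0.1, the smallest that 3 libraries against 3 allow.

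When mCherryRNAi replicate 1 was left out, all 8 members passed, 7 as higher and 1 as lower, where 22.5% and 25.0% of the tested genes passed in these directions. In that fit the log2 fold changes of GlyS, UGP and AGBE were 1.42, 1.35 and 2.33 (limma adjusted p = 0.00054, 0.0022 and 0.00046). Against mCherryRNAi replicate 1 alone, which gives no replicate check, the tmodRNAi mean was 0.90 times that library for GlyP, 1.06 times for GlyS, 1.10 times for UGP, 1.03 times for PhKgamma and 1.29 times for AGBE. Between the controls, mCherryRNAi replicate 1 was 2.89 times the mean of replicates 2 and 3 for GlyP and 3.89 times for AGBE. For 5 members (GlyP, GlyS, UGP, PhKgamma and Tret1-1) controls 2 and 3 lay below every tmodRNAi library while control 1 did not, a pattern named after the values were seen, which 9.68% of the tested genes shared.

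**Figure D2:**
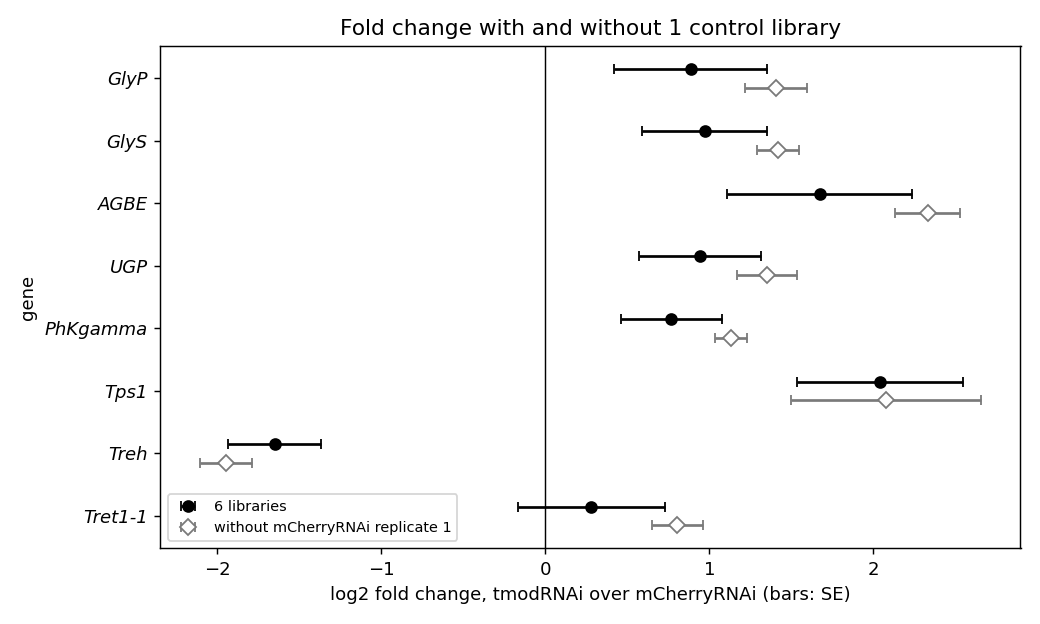
Log2 fold change of tmodRNAi over mCherryRNAi for each gene, with all 6 libraries (filled circles) and without mCherryRNAi replicate 1 (open diamonds); bars are the standard error from limma. Leaving out that library moves the glycogen genes and Tret1-1 to the right and narrows their bars, whereas Tps1 stays near 2.04 and 2.08.

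The trehalose genes did not move together. Tps1 (FBgn0027560; 2L, 4388327 to 4392778, plus strand) encodes trehalose-6-phosphate synthase, the enzyme that makes trehalose from UDP-glucose and glucose 6-phosphate. Tps1 had 428, 1581 and 1289 normalized counts in tmodRNAi replicates 1 to 3, against 244, 285 and 179 in mCherryRNAi replicates 1 to 3. The 3 controls were close to one another, and tmodRNAi replicate 1 lay much nearer to them than replicates 2 and 3 did. The means were 1099 ± 599 in tmodRNAi and 236 ± 53.6 in mCherryRNAi libraries (SD, n = 3 each), a ratio of 4.66. The log2 fold change was 2.04 (SE 0.51, 95% interval 0.80 to 3.28, limma adjusted p = 0.041). It passed without mCherryRNAi replicate 1 (2.08, adjusted p = 0.0299) and without tmodRNAi replicate 1 (2.62, adjusted p = 0.041), and did not pass in the other 4 fits that left out a library, with adjusted p from 0.091 without mCherryRNAi replicate 2 to 0.14 without mCherryRNAi replicate 3 or tmodRNAi replicate 3. In those 4 fits 0 of all tested genes passed as higher and 0 to 2 as lower. The call was also lost in limma without the trend (adjusted p = 0.060).

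The profile of Tps1 was set beside fat body transcripts. Of all tested genes, the one whose log2 profile over the 6 libraries lay nearest to that of Tps1 was Lsp1beta, a larval serum protein made by the fat body, with a root mean square difference of 0.15 log2 units, against a root mean square spread of 1.19 for Tps1 itself. Lsp1beta had 88246, 315593 and 242120.1 normalized counts in tmodRNAi replicates 1 to 3, against 41298, 43075 and 31928 in mCherryRNAi replicates 1 to 3. Of 13 listed fat body markers 12 were tested, 4 passed as higher in tmodRNAi and 0 as lower (9 and 3 by sign; 5 and 1 passed without mCherryRNAi replicate 1), and Pepck1 was at 0 in every library. Over all tested genes 10.9% passed as higher and 12.9% as lower, and 22.5% and 25.0% did so without mCherryRNAi replicate 1. The summed level of the 13 markers was 360521, 1053776 and 892628 normalized counts in tmodRNAi replicates 1 to 3, against 226001, 318462 and 298235 in mCherryRNAi replicates 1 to 3. The part of fat body RNA in the Tps1 result was not tested. Relative to that sum, the log2 level of Tps1 was -9.71, -9.38 and -9.43 in tmodRNAi replicates 1 to 3, against -9.85, -10.12 and -10.70 in mCherryRNAi replicates 1 to 3. The difference on this scale was 0.71, against the log2 fold change of 2.04 for Tps1 itself, and the groups did not overlap. Fbp1, a fat body receptor for storage proteins, made up a larger part of that sum in mCherryRNAi than in tmodRNAi libraries. Fbp1 had 37921, 69347 and 93929 normalized counts in tmodRNAi replicates 1 to 3, against 44712, 128182 and 122626 in mCherryRNAi replicates 1 to 3 (log2 fold change -0.50, limma adjusted p = 0.48). It is named after its values were seen. Lsp1beta had a log2 fold change of 2.30 (limma adjusted p = 0.032). Because Lsp1beta was picked for its nearness in profile to Tps1, a similar fold change follows from that choice.

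Treh (FBgn0003748; 2R, 21074018 to 21088945, plus strand) encodes trehalase, which splits trehalose into glucose molecules. It had 13253, 9286 and 9836 normalized counts in tmodRNAi replicates 1 to 3, against 22035, 42376 and 39878 in mCherryRNAi replicates 1 to 3. All tmodRNAi libraries lay below all controls, and mCherryRNAi replicate 1 lay between tmodRNAi and the other controls. The tmodRNAi mean of 10792 ± 2149 was 0.31 times the mCherryRNAi mean of 34763 ± 11093 (SD, n = 3 each). The log2 fold change was -1.65 (SE 0.28, 95% interval -2.34 to -0.95, limma adjusted p = 0.031), and the exact permutation p was 0.1, the smallest possible. It was -1.95 without mCherryRNAi replicate 1 (adjusted p = 0.00042), and it did not pass in the fits without any 1 of the other 5 libraries, where it lay between -1.80 without tmodRNAi replicate 1 and -1.48 without mCherryRNAi replicate 2 (adjusted p from 0.066 to 0.12). Few genes passed in those 5 fits: 0 to 37 of all tested genes as higher and 0 to 22 as lower. Treh exons share 560 of 4369 bases with Rbpn-5 on the opposite strand, which had 1955 to 2246 normalized counts in tmodRNAi and 2246 to 2389 in mCherryRNAi libraries. The summed level of 10 gut markers moved with Treh, at 8576, 5944 and 4676 normalized counts in tmodRNAi replicates 1 to 3, against 13820, 31961 and 27014 in mCherryRNAi replicates 1 to 3. Nearly all of that sum was Mur89F, a mucin-related gene, and the listed digestive enzymes were low or at 0 (5 of the 10 genes were tested, 1 passed as higher and 1 as lower, and 2 as higher and 1 as lower without mCherryRNAi replicate 1). By sign 4 of the 5 tested gut markers were higher and 1 lower in tmodRNAi. Their median log2 fold change was 1.23, against -1.65 for Treh, so most of them did not follow the sum. The part of gut RNA in the Treh result was not tested.

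Tret1-1 (FBgn0050035; 2R, 11665768 to 11674782, plus strand) encodes a facilitated trehalose transporter. Its normalized counts were 10445, 11597 and 8569 in tmodRNAi replicates 1 to 3, against 17267, 5203 and 6459.9 in mCherryRNAi replicates 1 to 3. The tmodRNAi libraries lay between mCherryRNAi replicate 1 and the other controls. The log2 fold change was 0.28 (95% interval -0.82 to 1.37, limma adjusted p = 0.66), 0.80 without mCherryRNAi replicate 1 (adjusted p = 0.0083) and -0.061 without mCherryRNAi replicate 2. The related gene Tret1-2, which starts 1152 bases away, had 78.8 to 137 normalized counts in tmodRNAi and 55.6 to 221 in mCherryRNAi libraries.

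**Figure D3:**
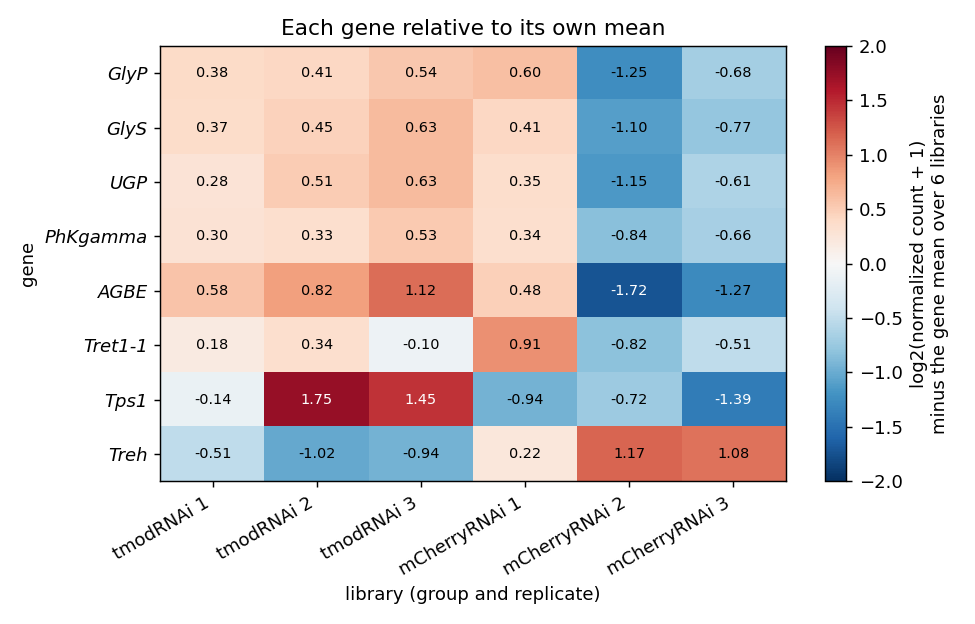
Each cell gives log2(normalized count + 1) of a gene in a library minus that gene's mean over the 6 libraries; columns are the 3 tmodRNAi libraries and then the 3 mCherryRNAi libraries, rows the 8 genes, red above and blue below the mean. The upper 5 rows are low in mCherryRNAi replicates 2 and 3, Tps1 is high in tmodRNAi replicates 2 and 3 (1.75 and 1.45), and Treh runs the other way, at 1.17 and 1.08 in mCherryRNAi replicates 2 and 3.

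Among themselves, the 4 genes GlyP, GlyS, UGP and PhKgamma had the most alike profiles. The root mean square difference of their log2 profiles was 0.085 between GlyS and UGP, 0.11 between GlyP and GlyS and at most 0.20 between any pair of the 4, over 6 libraries. AGBE differed from GlyS by 0.42, and its root mean square spread over the libraries was 1.08, against 0.67 for GlyS. Treh was far from every member, and the nearest was Tret1-1 at 1.29. Many other genes were as near to some members as their nearest fellow member. Counting that member, these were 6 tested genes for GlyP, 8 for GlyS, 6 for UGP and 117 for PhKgamma. The counts were 274 for AGBE, 182 for Tret1-1, 1020 for Tps1 and 8788 for Treh. These differences describe the libraries, which share their composition.

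The gene with the nearest profile among all tested genes was also found for each member. For PhKgamma it was CG9485, the glycogen debranching enzyme, with a difference of 0.048 log2 units, although 1659 of its 5491 exon bases overlap a gene on the opposite strand. For GlyP it was Pfk (0.039), which encodes the phosphofructokinase of glycolysis, and for GlyS it was Gapdh2 (0.036), another glycolytic enzyme. UGP was nearest to sun (0.064), AGBE to scaf (0.073), Treh to CG18549 (0.051) and Tret1-1 to Cluap1 (0.11), a gene with at most 34.3 normalized counts.

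Levels were compared between genes per kilobase of merged exons. GlyP had the highest level of the 8 in every library, with 120078 ± 6847 normalized counts per kilobase in tmodRNAi and 75248 ± 51182 in mCherryRNAi libraries (SD, n = 3 each). By this measure it ranked between 55 and 63 among all genes in tmodRNAi libraries and between 55 and 198 in mCherryRNAi libraries. In tmodRNAi libraries the order continued with GlyS, AGBE, UGP, PhKgamma, Tret1-1, Treh and Tps1. Each gene was above the next in 3 of 3 libraries, but the values of GlyS and AGBE, of UGP and PhKgamma and of Tret1-1 and Treh overlapped across libraries. In mCherryRNAi libraries Treh stood second, with 7957 ± 2539 normalized counts per kilobase, against 2470.1 ± 492 in tmodRNAi libraries, where it stood seventh. It was above GlyS in 2 of 3 mCherryRNAi libraries. GlyS was above AGBE in 3 of 3 mCherryRNAi libraries, although their values overlapped across libraries. The order of AGBE, UGP, Tret1-1 and PhKgamma was not resolved, since each neighbouring pair overlapped and none kept its order in 3 of 3 libraries. Tps1 was lowest in both groups, at 377 ± 205 normalized counts per kilobase in tmodRNAi and 80.8 ± 18.4 in mCherryRNAi libraries.

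Ratios within a library do not depend on the scaling between libraries. GlyP exceeded GlyS by 10.2, 9.84 and 9.53 times in normalized counts in tmodRNAi replicates 1 to 3, against 11.5, 9.15 and 10.8 times in mCherryRNAi replicates 1 to 3. The log2 ratio differed by -0.08 between the groups, less than the spread among controls (SD 0.17). The ratio of AGBE to GlyS was 0.503, 0.563 and 0.615 in tmodRNAi libraries, against 0.460, 0.285 and 0.309 in mCherryRNAi libraries, with no overlap between the groups. Treh exceeded Tps1 by 30.9, 5.87 and 7.63 times in tmodRNAi replicates 1 to 3, against 90.3, 149 and 223 times in mCherryRNAi replicates 1 to 3. The difference in the log2 ratio was -3.69. These ratios are descriptions without a test, and that of AGBE to GlyS was added after the values were seen.

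The members were also set against the muscle markers in the same library, because the summed markers moved with the glycogen genes. Of the 19 muscle markers 11 passed as higher in tmodRNAi, 0 passed as lower, and their median log2 fold change was 1.45. Without mCherryRNAi replicate 1 all 19 passed as higher, with a median of 1.88. Of all tested genes, 10.9% passed as higher and 12.9% as lower, and 22.5% and 25.0% did so without that library. The log2 ratio of GlyP to the summed markers was -5.20, -5.23 and -5.22 in tmodRNAi replicates 1 to 3, against -4.37, -4.61 and -4.36 in mCherryRNAi replicates 1 to 3. On this scale all 3 tmodRNAi libraries were below all controls, by 0.77 on average, whereas on the deposited scale the GlyP mean was higher in tmodRNAi. The corresponding differences were -0.68 for GlyS, -0.71 for UGP, -0.89 for PhKgamma, -1.38 for Tret1-1 and -3.30 for Treh, each without overlap. They were 0.02 for AGBE and 0.39 for Tps1, where the groups overlapped. These differences depend on the markers used, since a few abundant genes weigh most in the sum. Act57B alone had 3469305 of its 13337598 normalized counts in tmodRNAi replicate 1. The log2 fold change was 0.52 for TpnC73F and 0.79 for Mlp84B, below the 0.89 of GlyP, and 2.35 for Act87E. These 4 markers are named after their values were seen. The summed level of 12 epidermis and cuticle markers also followed the glycogen genes, at 561253 to 607955 normalized counts in tmodRNAi libraries, against 482211, 167540 and 173498 in mCherryRNAi replicates 1 to 3 (11 tested, 1 passed as higher and 2 as lower, and 8 as higher and 2 as lower without mCherryRNAi replicate 1). The sums of the trachea and hemocyte markers were also lowest in mCherryRNAi replicates 2 and 3. The neuron and glia sum was lowest there by little, at 10565 and 10878, against 11142 in mCherryRNAi replicate 1 and 11119 to 14787 in tmodRNAi libraries. The sums of the fat body, salivary gland and gut markers were not lowest in these controls. By sign 3 trachea markers were higher and 3 lower, as were 5 and 5 hemocyte markers and 9 and 1 neuron and glia markers. The part of the RNA content of muscle, epidermis or any other tissue in these values was not tested.

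**Figure D4:**
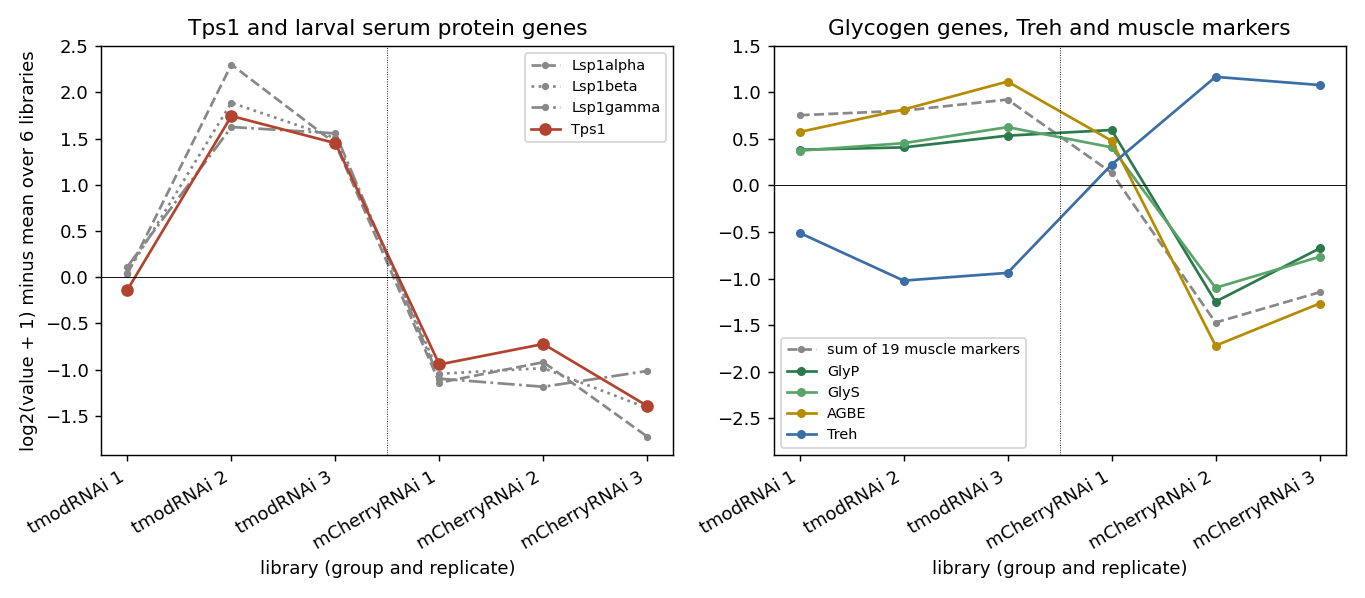
Log2(value + 1) minus its mean over the 6 libraries, by library (tmodRNAi left and mCherryRNAi right of the dotted line). In the left panel Tps1 is drawn with 3 larval serum protein genes of the fat body, and all 4 are highest in tmodRNAi replicates 2 and 3. The other listed fat body markers are not drawn. Of the 12 tested, 9 were higher and 3 lower in tmodRNAi by sign, and Fbp1 was among the lower. In the right panel GlyP, GlyS, AGBE and Treh are drawn with the sum of 19 muscle markers, which is higher in each tmodRNAi library than in mCherryRNAi replicate 1.

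Other genes of sugar storage and supply were taken from 4 lists. Of 7 further glycogen genes 6 were found under the listed symbols and tested, 0 passed in either direction, and all 6 had a positive log2 fold change, with a median of 0.73. The most abundant was Pgm1, phosphoglucomutase, which interconverts the glucose phosphates, with 61769.7 ± 6249 normalized counts in tmodRNAi and 50524 ± 21677 in mCherryRNAi libraries (SD, n = 3 each; log2 fold change 0.37, limma adjusted p = 0.37). CG7766, a regulatory subunit of phosphorylase kinase that is named after its values were seen, had 23204, 24303 and 25641 normalized counts in tmodRNAi replicates 1 to 3, against 22216, 7999.8 and 9868 in mCherryRNAi replicates 1 to 3. It was the only one of the 6 without overlap, where 51.4% of all tested genes had none (log2 fold change 1.01, limma adjusted p = 0.088). Without mCherryRNAi replicate 1, all 6 passed as higher, where 22.5% of all tested genes did so (10.9% with every library).

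The 4 further trehalose genes differed from one another. CG5171, which encodes a trehalose-6-phosphate phosphatase (the enzyme of the last step of trehalose synthesis), fell, with a log2 fold change of -4.99 (SE 0.76, limma adjusted p = 0.031), and -5.90 without mCherryRNAi replicate 1. It had 2456, 2519.7 and 3254 normalized counts in tmodRNAi replicates 1 to 3, against 24551, 199748 and 132636 in mCherryRNAi replicates 1 to 3. Its neighbour CG5177, 499 bases away and of the same enzyme family, is named after its values were seen. CG5177 had 238886 ± 13482 normalized counts in tmodRNAi and 242929 ± 20082 in mCherryRNAi libraries (SD, n = 3 each), with a log2 fold change of -0.02 (limma adjusted p = 0.92). CG6262, a predicted trehalase, passed as higher (limma adjusted p = 0.036) on 16, 44 and 10 reads in tmodRNAi replicates 1 to 3, against 0, 2 and 2 reads in mCherryRNAi replicates 1 to 3, and did not pass with a pseudocount of 0.1 or 10 or with quantile normalization. Because 1 control is at 0 reads, no fold is given. Tret1-2 did not pass (adjusted p = 0.92).

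Of 11 genes of glucose uptake and phosphorylation 8 were tested, 1 passed as higher and 1 as lower, and 3 in each direction without mCherryRNAi replicate 1. Over all tested genes these shares were 10.9% and 12.9%, and 22.5% and 25.0% without that library. Glut1, a glucose transporter of the plasma membrane, had 2720.4, 2238 and 2352 normalized counts in tmodRNAi replicates 1 to 3, against 3646, 11536 and 10329 in mCherryRNAi replicates 1 to 3. All tmodRNAi libraries were below all controls (log2 fold change -1.64, SE 0.44, limma adjusted p = 0.046), and the call was lost in limma without the trend. Hex-t2, a testis-type hexokinase, passed as higher (limma adjusted p = 0.035) on 43, 65 and 16 reads in tmodRNAi, against 8, 4 and 2 reads in mCherryRNAi libraries.

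Of 19 genes of sugar and energy signals 18 were tested, 1 passed as higher and 3 as lower, and their median log2 fold change was 0.06. Without mCherryRNAi replicate 1 these counts were 5 and 4. Over all tested genes 10.9% passed as higher and 12.9% as lower, and 22.5% and 25.0% without that library. daw, an activin-like ligand that takes part in the sugar response, fell to 1985 ± 213 normalized counts in tmodRNAi, against 3789 ± 859 in mCherryRNAi libraries (SD, n = 3 each; log2 fold change -0.91, limma adjusted p = 0.031). sgg, the fly glycogen synthase kinase, fell to 12576 ± 1108 normalized counts in tmodRNAi, against 24293 ± 5932 in mCherryRNAi libraries (log2 fold change -0.92, limma adjusted p = 0.034). bigmax, the partner of the sugar-sensing factor Mondo, had a log2 fold change of -0.39 (adjusted p = 0.039). The calls of these 3 genes were lost in limma without the trend, and bigmax and sgg share 83 and 1470 exon bases with another gene. Akh, the adipokinetic hormone that mobilizes both stores, had 158 to 164 normalized counts in tmodRNAi and 71.6 to 119 in mCherryRNAi libraries (log2 fold change 0.81, limma adjusted p = 0.045). It did not pass without a filter, with median centring, with quantile normalization, in limma without the trend or in edgeR. Each of the 8 called genes of these lists passed in the fit without mCherryRNAi replicate 1 and in none of the other 5 fits that left out a library. In those 5 fits 0 to 37 of all tested genes passed as higher and 0 to 22 as lower.

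**Figure D5:**
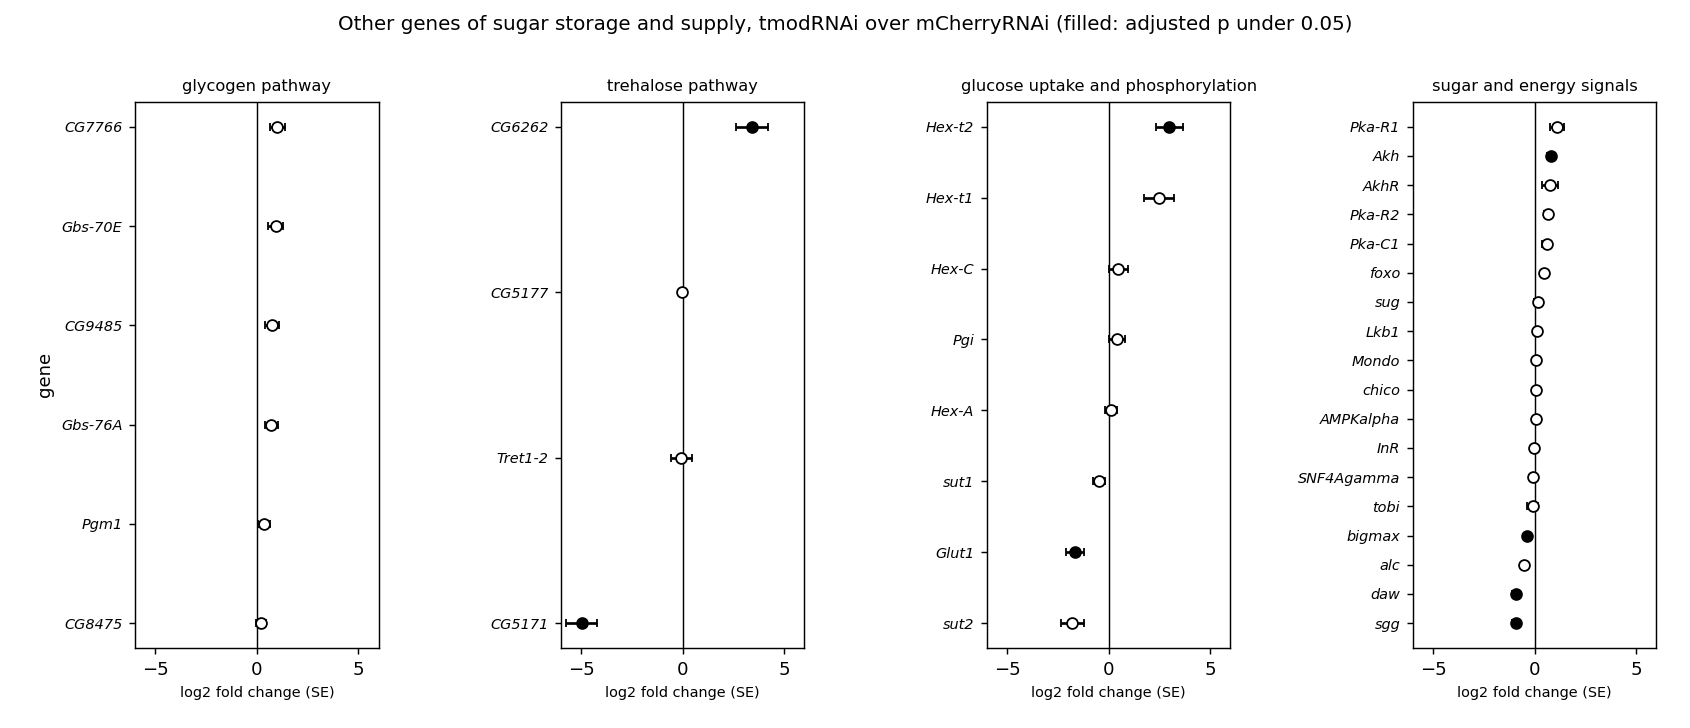
Log2 fold change of tmodRNAi over mCherryRNAi for the tested genes of the 4 lists, 1 panel per list, ordered by fold change; bars are the limma standard error and filled points have an adjusted p under 0.05. The glycogen panel holds only open points right of 0, and CG5171 at -4.99 lies farthest left in the trehalose panel, where the fitted value of CG6262 rests on controls with 0 to 2 reads.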

How the data were processed

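RNA was extracted with Trizol, made into libraries by a SMARTer method and run as 50 nt read pairs; these steps are taken from the labels. The authors deposited 1 table of normalized counts, a signal that is never negative; DESeq2 1.30.1 and build dm6 are named in the submitters' processing notes. The aligner, counter, annotation and strand setting are not given in the sources used here. Dividing each library by its lowest nonzero value gave whole reads (tolerance 0.01) for 100% of entries; edgeR on these reads called 1001 genes as higher and 1416 as lower. A floor of 3 reads corresponded to 2.41 to 3.31 normalized counts and covers counting error only.

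Genes averaging 10 or more normalized counts over all libraries (10969) were compared as log2(normalized count + 1) with limma 3.58.1 (trended prior, R 4.3.3), tmodRNAi over mCherryRNAi, without a block, with Benjamini-Hochberg adjustment over all tested genes and a threshold of 0.05. The added 1 understates changes of low genes. Positions and exon lengths come from Ensembl BDGP6.54 (dm6 coordinates), which held 17710 of the 17807 identifiers. Alternatives were pseudocounts of 0.1 and 10, no filter, a mean of at least 50, median centring, quantile normalization, an untrended limma prior, the quasi-likelihood test of edgeR 4.0.16, DESeq2 1.42.0 (both on recovered reads), leaving out each library, a replicate block, and the longest transcript as gene length. The tests were also run on simulated counts with the same dispersion for every gene and no outlying library. The controls here differ from that setting, so the simulation does not show how the tests behave on these data.

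The members and lists were chosen with earlier results of these data known. Named were the 8 members, tmod, called list genes (at most 4 per list, or else the most abundant), the gene nearest in profile to each member, genes overlapping or neighbouring a member, and others where stated. No sequences are shown.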

Additional observations from a re-analysis of the deposited data

How the results depend on the processing

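The direction of each member's log2 fold change was kept in every alternative except for Tret1-1, which was -0.061 without mCherryRNAi replicate 2. In limma without the trend 473 genes were higher and 481 lower, with 0 members higher (Tps1 2.04, adjusted p = 0.060); in DESeq2 2063 were higher and 2301 lower, with 2 members higher (AGBE 1.36, adjusted p = 0.043). Libraries with the same replicate number showed no sign of pairing (correlation of same-numbered deviations -0.06, 0.02 and -0.02). With 3 libraries per group and 1 outlying control, these values cannot exclude a pairing. With the number as a replicate block 0 genes, 0 members and 0 genes of each list passed in limma in either direction, though 3969 genes and 3 members had an unadjusted p under 0.05; Tps1 was 2.04 and Treh -1.65 (adjusted p = 0.096 each). When each library was left out in turn, 0 to 2464 genes were higher and 0 to 2739 lower in limma (3227 to 5983 at an unadjusted p under 0.05), and 0 to 7 members were higher and 0 to 1 lower. The log2 fold change then ranged from 0.48 to 1.41 for GlyP, 0.66 to 1.42 for GlyS, 1.23 to 2.33 for AGBE, 0.61 to 1.35 for UGP, 0.54 to 1.13 for PhKgamma, 1.68 to 2.62 for Tps1, -1.95 to -1.48 for Treh, -0.061 to 0.80 for Tret1-1 and -2.62 to -2.42 for tmod, which passed in 3 of 6 fits. Of the glycogen list 0 to 6 genes were then higher. Of the trehalose list 0 to 1 were higher and 0 to 1 lower, and 0 were higher with a pseudocount of 0.1 or 10, a mean of at least 50 or quantile normalization. At a mean of at least 50 only 3 genes of this list were tested, and CG6262 was not among them. Of the glucose list 0 to 3 were higher and 0 to 3 lower. In it 2 were higher with a pseudocount of 10, no filter or DESeq2 and 0 with a mean of at least 50. As lower, 2 passed with quantile normalization, edgeR or DESeq2 and 0 without the trend. At a mean of at least 50 only 5 genes of this list were tested, without Hex-t2, and with no filter 11 were. Of the signals list 0 to 5 were higher and 0 to 4 lower; 0 were higher with no filter, median centring, quantile normalization, no trend or edgeR and 4 with DESeq2, and 0 were lower without the trend. The highest counts were those without mCherryRNAi replicate 1, and the cause of these changes was not tested. With the longest transcript as gene length 6 of 8 members kept their place in the order of levels. The lowest value of any member was 167 reads, for Tps1 in mCherryRNAi replicate 3, and an effect of depth was not tested.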
